A study of Mus musculus with 30 samples.

Results

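The comparison described here asks where the response of bone marrow (BM) genes to beinaglutide, an agonist of the GLP-1 receptor, combined with an antibody against IL-17A was not the sum of the responses to each alone. It uses the 12 BM libraries of the 4 groups that make up this factorial design, 3 libraries per group, of 30 libraries in the whole series as the labels assign them. All 4 groups were leptin-deficient, obese Ob/Ob mice on a C57BL/6J background, lethally irradiated and transplanted with equal numbers of BM cells from Shp2E76K/+;LysM-Cre+ donors (CD45.2) and from Boy/J competitors (CD45.1). From 8 weeks after transplantation they received for 30 days vehicle (Vehicle), beinaglutide at 3 mg/kg subcutaneously (GLP1), the anti-IL-17A antibody at 200 µg per mouse intraperitoneally 3 times weekly (IL17A), or both agents (Combo). The labels put the mice at about 12 to 14 weeks of age and of both sexes, an age that, for recipients, cannot be that at sampling given this schedule, and they do not say to which time it refers. The LysM-Cre transgene activates the mutant Shp2 allele, an overactive form of the phosphatase encoded by Ptpn11, in myeloid cells, so the sequenced marrow was a mixture of mutant myeloid cells, other donor cells, competitor cells and whatever recipient cells survived irradiation. A further 3 BM libraries came from lean WT recipients, irradiated and, as the paper describes, transplanted with the same cells. No drug is listed for these mice. Their libraries gave a reference level and entered the estimate of the spread.

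IL-17A is a cytokine of T cells that acts on stroma, epithelium and myeloid cells, where it stabilizes and induces transcripts of chemokines, acute phase proteins and granulopoietic factors, often together with TNF. The GLP-1 receptor binds the incretin hormone GLP-1, and its agonists lower blood glucose and food intake. Type I and type II interferons act through JAK kinases and STAT transcription factors on genes for antiviral proteins, guanylate-binding proteins and antigen presentation. In marrow, inflammatory cytokines generally favor production of myeloid cells over erythroid and lymphoid cells.

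A departure from additivity was the log2 level in Combo minus GLP1 minus IL17A plus Vehicle. It is 0 when the fold change of the combination equals the product of the fold changes of the single agents. A positive departure means that Combo lay above that additive expectation and a negative one that it lay below, whether or not Combo differed from either agent alone. All levels below are normalized counts, that is, counts scaled to a common library size, and they are comparable between libraries for a gene but not between genes of different length. A gene was called at an adjusted p below 0.05 in edgeR with an absolute log2 departure above 1.

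The 12 libraries held 31086184 to 36968230 counts on 13353 genes. The labels describe 3 mice per group, but the coefficient of biological variation was 3.51%, and p-values measure only the spread between these libraries. Leukocyte, granulocyte and B cell genes (Ptprc, Mpo, S100a8 and Cd79a) were expressed in each group, as the label of whole BM cells would have it. Sex-linked genes separated the groups. Xist, the transcript of the inactive X chromosome, stood at 6582, 6712 and 6339 in Vehicle, 5.62, 0.876 and 0 in GLP1, 88.3, 93.5 and 113 in IL17A and 3658, 3644 and 3528 in Combo. Eif2s3y, a Y-linked gene, stood at 1058, 1105 and 1171 in Vehicle, 2142, 2390.1 and 2237 in GLP1, 2301, 2322 and 2272 in IL17A and 146, 149 and 188 in Combo, and Ddx3y and Uty were likewise lowest in Combo and next lowest in Vehicle. Vehicle, Combo and, at a lower level of Xist, IL17A thus held RNA of both sexes, whereas Xist was near 0 in GLP1, so that no size is given for its departure. Those of the 4 Y-linked genes tested lay between -5.13 and -4.02 on the log2 scale. The part of the sex of donor, competitor or recipient cells in the departures of other genes was not tested. Of 416 genes tested on chromosome X 89 were called, and of 4 on chromosome Y all 4, where 21.1% of all genes tested were called. The remaining 2726 called genes include those without an assigned position. Setting X and Y genes aside says nothing on sex differences in genes of other chromosomes. In whole marrow, fewer cells of a type and less RNA per cell cannot be told apart.

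**Figure D1:**
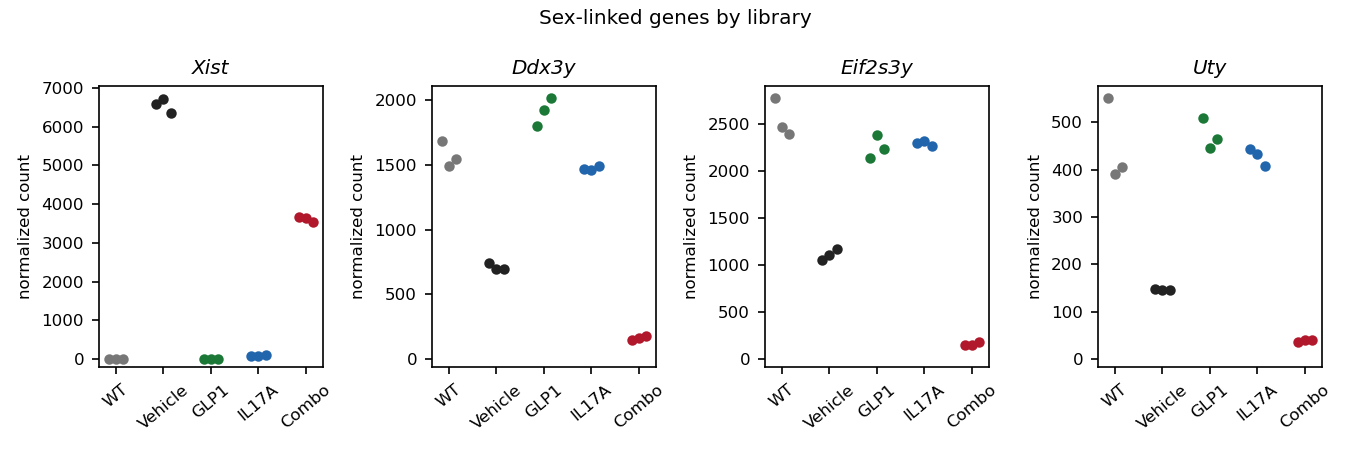
Normalized counts (vertical axes) of Xist and of 3 Y-linked genes in the 15 BM libraries, by group (horizontal axes), 1 point per library. Xist is high in Vehicle and Combo and near 0 in WT and GLP1, and the Y-linked genes are lowest in the 3 Combo libraries.

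The combination departed from additivity in many genes. In most of these, both single agents lay on the same side of Vehicle. Combo fell short of their sum or lay past Vehicle on the other side. Of 13353 genes tested, 2819 were called (21.1%), 1280 above the additive expectation (9.59%) and 1539 below it (11.5%), and the median departure over all genes was 0.00. Of the 1280 genes above expectation, 1202 (93.9%) had lower levels in both single agents than in Vehicle, against 38.1% of all genes tested. Of the 1539 genes below it, 1385 (90%) had higher levels in both single agents than in Vehicle, against 39.2% of all genes. Combo lay past Vehicle, on the other side from both single agents, in 221 (17.3%) of the genes above expectation. The same held for 353 (22.9%) of those below it, against 12.2% of all genes. Vehicle enters the departure and all of these differences, so the shares describe the form of the departures and are no separate evidence for them. All 3 Combo libraries lay on the same side of the expectation in 2800 of the 2819 genes. The sign also held when the departure was computed on the linear scale of mean normalized counts, in 2817 of 2819 genes.

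Combo was called against neither single agent in 869 (67.9%) of the genes above expectation and in 773 (50.2%) of those below it. It was called above both single agents in 100 of the genes above expectation and below both in 208 of the genes below it. Over all genes tested, Combo was called above both single agents in 109 (0.816%) and below both in 302 (2.26%). These last counts depended on the size of the change asked for. With a test against a log2 difference of 1 itself (glmTreat of edgeR), 59 genes were above both and 29 below both, and the departure was called in 1750 genes.

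**Figure D2:**
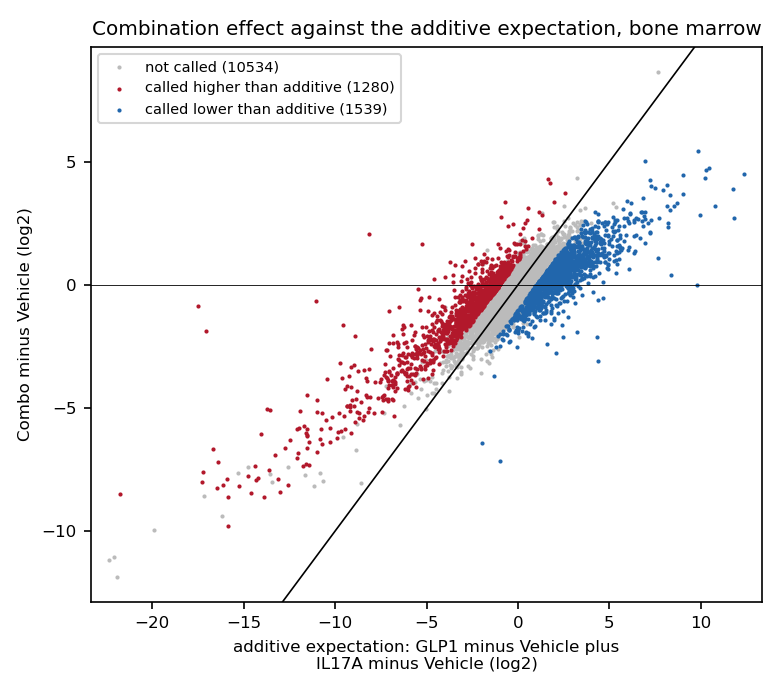
Log2 difference of Combo from Vehicle (vertical axis) against the sum of the log2 differences of GLP1 and of IL17A from Vehicle (horizontal axis), 1 point per gene, with the line of equality. Both axes share the Vehicle libraries, so the slope is not a test. The 1280 genes called above the line (red) mostly have negative sums and the 1539 called below it (blue) mostly positive ones.

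Interferon-stimulated genes had the highest median departure of the gene lists examined, and they were high in Vehicle and low in each treated group. Of 35 type I interferon-stimulated effectors tested, 35 were called above expectation, with a median departure of 4.85. The median log2 differences of this list from Vehicle were -5.68 for GLP1, -4.30 for IL17A and -5.11 for Combo. Ifit1, which binds viral RNA lacking host caps, had normalized counts of 11597, 11178 and 11177 in Vehicle, 50.6, 47.3 and 59.3 in GLP1, 134, 101 and 106 in IL17A and 74.1, 62.5 and 68.9 in Combo. No treated library came near Vehicle, and Combo lay between the single agents. Its additive expectation was 0.526 normalized counts, and its departure was 7.04 ± 0.24 (SE, edgeR adjusted p = 5.54e-20). WT libraries had 403, 292 and 357, above all treated libraries. Oas1a, which makes the 2-5A signal that activates RNase L, differed from this order, with 12125, 11539 and 11681 in Vehicle, 128, 103 and 108 in GLP1, 405, 416 and 431 in IL17A and 510.3, 527 and 549.8 in Combo. Here Combo was 2.23 above GLP1 on the log2 scale and 0.34 above IL17A, and its departure was 7.04 ± 0.08. Oas1g and Phf11d also had departures among the largest of the list, 10.03 and 7.10, while Ifi205, an interferon-inducible gene outside it, had 7.01. In 11 of the 35 genes the additive expectation was at or below 3 normalized counts, a level under which a library gives no usable value, and over all genes this held for 136 (10.6%) of those called above expectation.

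Guanylate-binding proteins and IRG GTPases, interferon-gamma induced proteins that attack vacuoles of intracellular microbes, were called above expectation in 16 of 17 genes (median 3.26). In 4 of the 16 the additive expectation was at or below 3 normalized counts. Gbp2 had 21012, 20741 and 20654 in Vehicle, 221, 238 and 234 in GLP1, 451, 419.8 and 415 in IL17A and 338, 365 and 387 in Combo, all treated libraries far under Vehicle and Combo between the single agents, for a departure of 6.26 ± 0.08 (edgeR adjusted p = 8.86e-41). Irf7, the transcription factor that amplifies type I interferon responses, had 48269, 49492 and 50889 in Vehicle, 690, 578 and 621 in GLP1, 1151, 1171 and 1198 in IL17A and 930.1, 986 and 917 in Combo. Its departure was 5.98 ± 0.07 (edgeR adjusted p = 4.97e-27). Of 18 interferon ligands, receptors and transcription factors 7 were called above expectation, Stat2, Irf1, Irf9, Tyk2 and Socs1 among them, whereas the receptor chains Ifnar1, Ifnar2, Ifngr1 and Ifngr2 had departures between -0.11 and 0.29. In MHC class I presentation and the immunoproteasome, which cut and load peptides for CD8 T cells, 18 of 19 genes were called above expectation (median 2.29). Psmb10, an immunoproteasome subunit, stood at 10222, 10668 and 10743 in Vehicle, 1432, 1405 and 1310.1 in GLP1, 1808, 1776 and 1654 in IL17A and 1542, 1546 and 1635 in Combo. All 3 treated groups lay together, with log2 differences of Combo from GLP1 of 0.19 and from IL17A of -0.15. MHC class II genes and their regulators, which serve presentation to CD4 T cells, had a median departure of -0.03, with 1 of 15 called above expectation and 2 below. Their median log2 differences from Vehicle were -1.11 for GLP1, -0.51 for IL17A and -1.64 for Combo, close to the sum of the single agents. Ciita, the regulator of class II genes, was called below expectation at -1.05 ± 0.16, close to the limit.

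Promoters of 3 interferon-stimulated genes, of the chemokine gene Cxcl10 and, as a gene that departed in the other direction, of Mrc1 are shown, from RefSeq on GRCm38.p6, 250 bases before to 50 bases after the start site, 5′ to 3′ on the strand of the gene. Capitals mark matches, on either strand, of GAAA followed by any 2 bases and a second GAAA, a simplified core of the interferon-stimulated response element to which STAT and IRF factors bind, and overlapping matches are merged.
Ifit1 promoter, chr19:34640639-34640938, plus strand: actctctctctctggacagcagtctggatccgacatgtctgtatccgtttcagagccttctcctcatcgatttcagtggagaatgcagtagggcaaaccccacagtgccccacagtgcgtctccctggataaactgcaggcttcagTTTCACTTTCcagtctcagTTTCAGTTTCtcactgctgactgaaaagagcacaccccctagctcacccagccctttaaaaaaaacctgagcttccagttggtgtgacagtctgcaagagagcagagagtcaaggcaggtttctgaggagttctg
Oas1a promoter, chr5:120907476-120907775, minus strand: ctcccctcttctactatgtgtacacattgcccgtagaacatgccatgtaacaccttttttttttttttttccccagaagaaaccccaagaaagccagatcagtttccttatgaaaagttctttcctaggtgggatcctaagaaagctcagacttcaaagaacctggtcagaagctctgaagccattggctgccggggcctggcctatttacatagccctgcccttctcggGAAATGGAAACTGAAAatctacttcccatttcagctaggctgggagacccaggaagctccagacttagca
Gbp2 promoter, chr3:142620413-142620712, plus strand: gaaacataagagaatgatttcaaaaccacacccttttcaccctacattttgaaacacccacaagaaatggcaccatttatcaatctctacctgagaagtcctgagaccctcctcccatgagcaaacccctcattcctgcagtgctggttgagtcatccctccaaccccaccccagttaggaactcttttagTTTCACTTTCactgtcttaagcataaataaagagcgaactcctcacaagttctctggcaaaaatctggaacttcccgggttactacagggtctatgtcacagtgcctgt
Cxcl10 promoter, chr5:92348840-92349139, minus strand: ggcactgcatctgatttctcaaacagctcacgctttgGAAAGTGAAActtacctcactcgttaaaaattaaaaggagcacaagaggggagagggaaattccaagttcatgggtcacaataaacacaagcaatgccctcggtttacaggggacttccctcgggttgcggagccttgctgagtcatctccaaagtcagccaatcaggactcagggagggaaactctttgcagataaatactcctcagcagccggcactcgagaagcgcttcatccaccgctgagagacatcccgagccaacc
Mrc1 promoter, chr2:14229164-14229463, plus strand: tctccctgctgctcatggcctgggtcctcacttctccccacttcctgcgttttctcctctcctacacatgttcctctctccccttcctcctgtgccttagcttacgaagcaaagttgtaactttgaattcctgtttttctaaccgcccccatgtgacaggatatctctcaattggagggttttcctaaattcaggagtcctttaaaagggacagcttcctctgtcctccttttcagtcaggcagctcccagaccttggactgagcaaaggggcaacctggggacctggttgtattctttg
These letters occurred in 1131 of all 32851 promoters of the table (3.44%) and in 398 of the 10113 tested genes with a promoter there (3.94%). Most tested genes thus had no match, Mrc1 among them, so its lack of one sets it apart from few genes. Matches occurred in 16 of 25 type I interferon-stimulated effectors and in 9 of 10 guanylate-binding proteins and IRG GTPases with a promoter. Of inflammatory chemokines 1 of 12 had a match (8.33%), and this was Cxcl10. Of genes called above expectation with Combo called against neither single agent, 76 of 665 had a match (11.4%). Of those with Combo above both single agents, 5 of 79 did (6.33%), and of the other genes above expectation 20 of 220 (9.09%). Of genes called below expectation with Combo below both single agents 3 of 155 did (1.94%). With Combo called against neither it was 13 of 576 (2.26%), and in the other genes below expectation 12 of 405 (2.96%). A match is a description of the sequence and not a bound site, and genes with several promoters had more than 1 window to match.

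Inflammatory chemokines, which draw leukocytes along gradients, were called above expectation in 12 of 18 genes and below in 1 (median 3.48). Cxcl10, a ligand of CXCR3 on T cells, had 9445, 9078 and 9446 in Vehicle, 28.1, 32.4 and 36.8 in GLP1, 52.8, 33.3 and 44.4 in IL17A and 35, 39.2 and 42.8 in Combo. The 3 treated groups overlapped, and the departure was 8.02 ± 0.27 (edgeR adjusted p = 1.5e-26), against an expectation of 0.15 normalized counts. Cxcl9, another CXCR3 ligand, had a departure of 7.24 ± 0.48, against an expectation of 0.16 normalized counts. Ccl2, the main attractant of CCR2-bearing monocytes, had 3069, 2982 and 3111 in Vehicle, 23.4, 35.1 and 25.5 in GLP1, 67, 80 and 97.9 in IL17A and 46.3, 65.7 and 49 in Combo and a departure of 6.14 ± 0.24. Its expectation was 0.75 normalized counts. Ccl8 was the 1 chemokine of the list with Combo called above both single agents, at 533, 508 and 594 in Vehicle, 27.2, 20.2 and 23.5 in GLP1, 17.3, 16.2 and 10.9 in IL17A and 54.5, 65.7 and 60.5 in Combo, still under Vehicle. For Ccl12, GLP1 libraries had at most 3 counts and IL17A libraries 2, 4 and 2, too few for a size of its departure. Ccl6 was called below expectation (-1.13). For 8 of the 12 genes called above expectation the additive expectation was at or below 3 normalized counts.

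The largest departure in a gene with at least 10 counts in each group was that of Saa3, an acute phase protein of macrophages and stroma. Its normalized counts were 70778, 73811 and 75149 in Vehicle, 46.9, 45.6 and 63.4 in GLP1, 28.4, 26.1 and 32.6 in IL17A and 207, 189.6 and 213 in Combo. Every treated library was far under Vehicle, and Combo stood 1.98 above GLP1 and 2.80 above IL17A on the log2 scale. The departure was 13.27 ± 0.14 (edgeR adjusted p = 5.7e-40), against an expectation of 0.021 normalized counts. With an expectation so far under 3 normalized counts, a Combo library with any count lies above it. Cfb, complement factor B, gave the plainest plateau, with 28646, 29032 and 29786 in Vehicle, 101, 99 and 88.9 in GLP1, 71.1, 106 and 114 in IL17A and 86.4, 81.5 and 118 in Combo and a departure of 8.19 ± 0.24 (edgeR adjusted p = 9.02e-15). The expectation for Cfb was 0.32 normalized counts, so the same limit holds for its size. Its exons overlap Gm20547 on the same strand over 79.5% of their length, so its counts may include that transcript. Among 24 IL-17 and TNF induced genes, 13 were called above expectation and 2 below (median 1.11), among them Nfkbia (2.13), Icam1 (2.17), Lcn2 (2.05) and Socs3 (1.65), with Fosb (-2.13) and Ptgs2 (-1.59) in the other direction.

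A smaller set of genes above expectation had Combo lower than either agent alone, that is, the agents added to each other but by less than the product of their effects. In 19 (1.48%) of the 1280 genes above expectation Combo was called below both single agents although the departure was positive. This share was smaller than the 2.26% of all genes tested with Combo below both. Among listed genes the 19 included Mx2, Rsad2, Gbp4, Gbp8, Iigp1, Tgtp2 and Ctla4. Ctla4, an inhibitory receptor of T cells, had 992, 1024 and 1029 in Vehicle, 143, 131 and 122 in GLP1, 77.1, 60.2 and 73.5 in IL17A and 38.1, 20.1 and 17.7 in Combo. The 4 groups did not overlap and Combo was lowest. Combo was -2.37 on the log2 scale from GLP1 and -1.46 from IL17A, against an expectation of 9.13 normalized counts (departure 1.48 ± 0.26, edgeR adjusted p = 2.88e-06, and 0.0587 with glmTreat). Il6, a cytokine of the acute phase, had 344, 303 and 324 in Vehicle, 89.1, 46.5 and 67.4 in GLP1, 38.6, 20.7 and 29 in IL17A and 17.5, 16.9 and 26.1 in Combo. Combo was called below GLP1 but not below IL17A (-0.53), and the departure was 1.73 ± 0.36 (edgeR adjusted p = 6.37e-05).

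**Figure D3:**
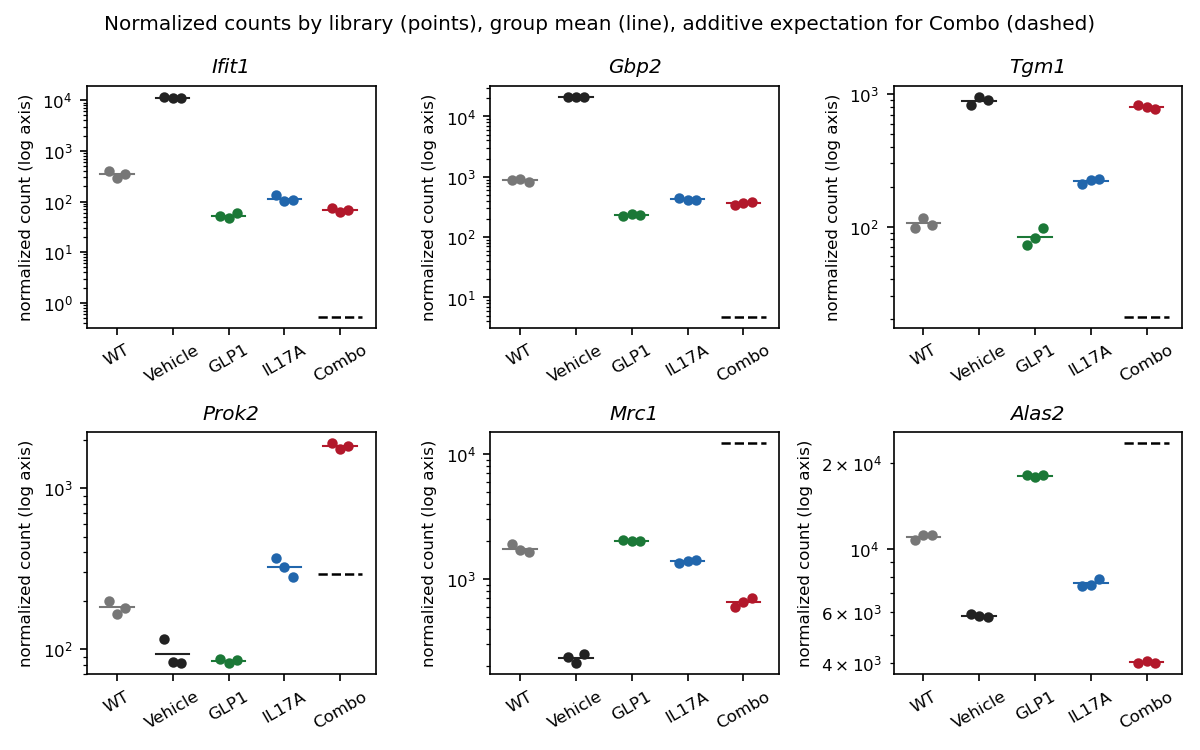
Normalized counts (vertical log axes) of 6 genes in the 15 BM libraries, by group. Points are libraries, solid lines are group means and the dashed line over Combo is the additive expectation. Ifit1 and Gbp2 stay low in all treated groups, Tgm1 in Combo is close to Vehicle, Prok2 is highest in Combo, and Mrc1 and Alas2 lie far under their expectation.

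A different pattern was seen in genes with Combo higher than either agent alone. In the 100 genes above expectation with Combo above both single agents, the median log2 difference from Vehicle was -1.09 in GLP1, -0.80 in IL17A and 0.86 in Combo. These genes were taken for Combo above both single agents, so that part of the contrast is built in. Unlike the median, Lipg, Nos2, Tgm1, Upp1, Il1r2 and Il4ra, given below, had Combo under Vehicle. Lipg, which encodes endothelial lipase, had after Saa3 the largest departure of the 100 genes among those with at least 10 counts in each group. Its normalized counts were 11165, 11198 and 10992 in Vehicle, 158, 171 and 165 in GLP1, 332, 378 and 367 in IL17A and 6988, 7321 and 7046 in Combo, so Combo was 5.43 above GLP1 and 4.31 above IL17A on the log2 scale, and the departure was 10.38 ± 0.07 (edgeR adjusted p = 5.59e-51). WT libraries had 69.3, 49.6 and 80.8, so the level in Combo was near that of Vehicle and not near that of WT. Nos2, inducible nitric oxide synthase, had 1813, 1831 and 1712 in Vehicle, 3.75, 0.876 and 0 in GLP1, 12.2, 11.7 and 16.3 in IL17A and 443, 495 and 525 in Combo, so Combo was far above both single agents and below Vehicle, and GLP1 was too near 0 for a size of the departure to be given. Arg1, which competes with it for arginine, had 2457, 2550.4 and 2474 in Vehicle, 13.1, 9.64 and 9.2 in GLP1, 17.3, 26.1 and 26.3 in IL17A and 9.26, 5.29 and 6.26 in Combo. Its 3 treated groups were all low, and its departure was 6.12 ± 0.56 against an expectation of 0.099 normalized counts.

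Among genes chosen after their values were seen, Tgm1, a transglutaminase, had 833, 956 and 901 in Vehicle, 72.2, 81.5 and 98.1 in GLP1, 209, 227 and 228 in IL17A and 833, 806 and 781 in Combo, every Combo library just under the lowest Vehicle library, and a departure of 5.29 ± 0.13 (edgeR adjusted p = 2.42e-31). Fam20c, a kinase of secreted proteins, had 965, 989 and 950.1 in Vehicle, 142, 138 and 151 in GLP1, 261, 265 and 282 in IL17A and 1166, 1085 and 1205 in Combo, Combo above every Vehicle library. Upp1, uridine phosphorylase, had 2726, 2678 and 2588 in Vehicle, 164, 176 and 197 in GLP1, 449, 453 and 414 in IL17A and 1346, 1442 and 1459.5 in Combo, Combo between Vehicle and both single agents. Their departures were 4.85 and 5.59. In WT the means of these 3 genes were 105 ± 10.4, 132 ± 15.1 and 280.4 ± 5.27 (SD, n = 3). Receptors of this kind were Il1r2, the decoy receptor of IL-1, and Il4ra, the signaling chain for IL-4 and IL-13. Il1r2 had 41400, 42894 and 42369 in Vehicle, 4063, 4196 and 4165 in GLP1, 3731, 3855 and 3725 in IL17A and 8272, 8424 and 8239.8 in Combo, and Il4ra had 10266, 10425 and 10206 in Vehicle, 4043, 4093 and 3949 in GLP1, 4110, 4072 and 4245 in IL17A and 8541, 8929 and 8812 in Combo. Combo was above both single agents in each, by about 1 on the log2 scale, but for Il1r2 it stayed far below Vehicle (departure 4.49 ± 0.04), and for Il4ra it was -0.23 from Vehicle (departure 2.43 ± 0.04).

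Genes of glycolysis and the pentose phosphate pathway, which turn glucose into pyruvate and NADPH, departed as a group in this direction. Of 22 tested, 14 were called above expectation and 0 below (median 1.38), with median log2 differences from Vehicle of -0.67 for GLP1, -0.30 for IL17A and 0.19 for Combo. Slc2a1, the glucose transporter GLUT1, had 2810, 2961 and 2808 in Vehicle, 885, 848 and 812 in GLP1, 1023, 979.9 and 1065 in IL17A and 1804, 1772 and 1661 in Combo. Pfkl, a phosphofructokinase, had 3563, 3565 and 3758 in Vehicle, 834, 871 and 790 in GLP1, 1528, 1696 and 1587 in IL17A and 2500.1, 2636 and 2592 in Combo, and Aldoa, aldolase A, had 37132, 38108 and 38345 in Vehicle, 15462, 14680 and 14915 in GLP1, 22102, 22237 and 22033 in IL17A and 36511, 36673 and 36433 in Combo. In each, Combo exceeded all 6 libraries of the single agents, was called above GLP1, and was above IL17A by 0.77, 0.68 and 0.72, under the limit of 1. Pgk1 (1.43), Gapdh (1.42) and Eno1 (1.89) were also called. G6pdx, the first enzyme of the pentose phosphate pathway, was the 1 gene of the list above both single agents, with 18634, 18778 and 19177 in Vehicle, 13972, 13948 and 13915 in GLP1, 21465, 21463 and 21455 in IL17A and 42803, 42990 and 43525 in Combo, and was X-linked. Taldo1 (-0.15) and Tkt (0.23), of the non-oxidative branch, were not called. Genes of the respiratory chain, in contrast, had 0 of 34 called (median 0.12).

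Late granule genes of maturing neutrophils had the highest median departure among the lists of cell types, with 12 of 27 called above and 1 below (median 0.81). The summed level of the list was 5108900 to 5160100 normalized counts in Vehicle and 3223600 to 3246300 in GLP1. It was 3820000 to 3872100 in IL17A and 5500300 to 5560200 in Combo, and so higher in Vehicle and Combo than with either agent alone. The sum weighs abundant genes such as S100a8 most and does not give the order of the median member. The median log2 differences of the list from Vehicle were -0.11 for GLP1, 0.30 for IL17A and 1.06 for Combo. The part of neutrophil gene levels in the departures of glycolysis and receptor genes was not tested. The stefin A genes, which inhibit cysteine proteases and lie in 1 cluster on chromosome 16, were highest in Combo. Stfa3 had 1226, 1115 and 1188 in Vehicle, 1219.7, 1236 and 1391 in GLP1, 1555, 1446 and 1555 in IL17A and 7609, 7448 and 7118 in Combo, with single agents close to Vehicle and Combo far above all 9 other libraries, and its departure was 2.16 ± 0.08 (edgeR adjusted p = 8.9e-21). BC100530 had 2117, 2124 and 2137 in Vehicle, 2339, 2331 and 2341 in GLP1, 2221, 2358 and 2339 in IL17A and 10894, 10356 and 10274 in Combo and a departure of 2.05 ± 0.05, and Stfa1 and Stfa2 departed by 1.87 and 1.37. These genes are close copies of each other, and reads that fit several of them were left out of the counts, so the share of each is uncertain. S100a8 (1.41), Lcn2 (2.05), Ngp (1.38) and Chil3 (1.81) were also called above expectation. Retnlg, a resistin-like gene of neutrophils, was called below it, with 16277, 16167 and 16485 in Vehicle, 67589, 67147 and 66968 in GLP1, 96074, 94550 and 95186 in IL17A and 93915, 92820 and 93232 in Combo, IL17A and Combo close together and Vehicle lowest (departure -2.07 ± 0.03).

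Prok2, a secreted peptide of neutrophils that attracts myeloid cells, was chosen after its values were seen. It had 116, 83.8 and 81.6 in Vehicle, 86.2, 81.5 and 85.8 in GLP1, 370.5, 324 and 283 in IL17A and 1900.2, 1746 and 1840.3 in Combo. GLP1 alone was -0.15 from Vehicle on the log2 scale and not called, IL17A alone was 1.79 above Vehicle, and Combo was 4.29 above it (departure 2.64 ± 0.17, edgeR adjusted p = 7.02e-17). Genes of primary granules, made earlier in granulocyte development, had a median departure of 0.56 with 5 of 15 called above expectation. Mpo (-0.15) and Elane (0.22) were not among them, while Plac8 (2.86) and Serpinb1a (1.79) were.

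**Figure D4:**
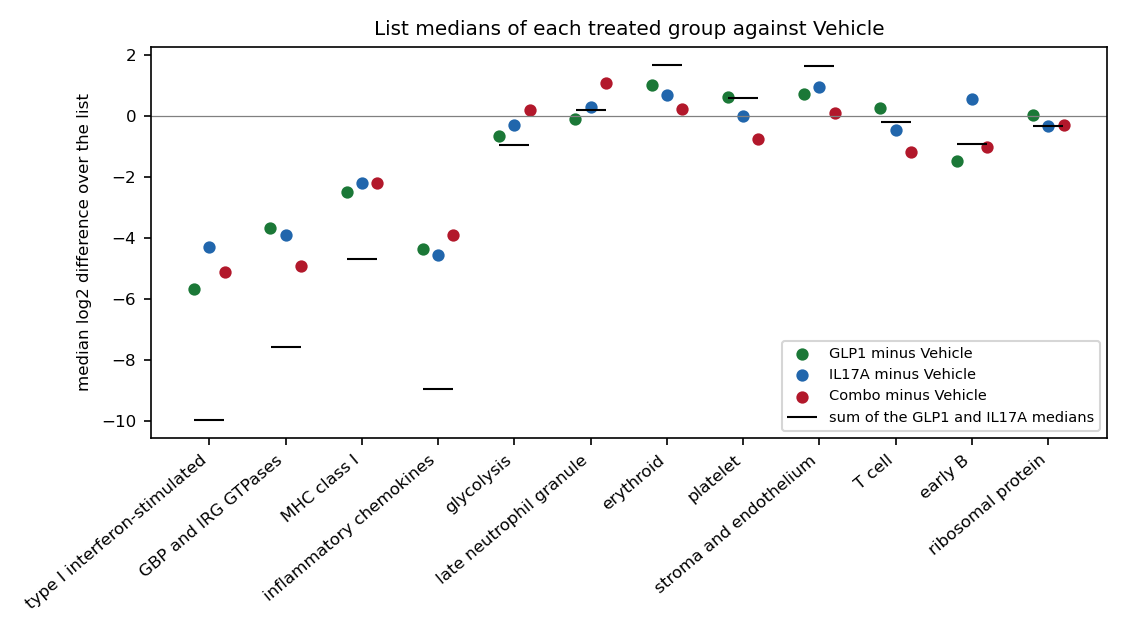
Median log2 difference from Vehicle (vertical axis) over the tested members of 12 gene lists (horizontal axis) for GLP1, IL17A and Combo, with the sum of the GLP1 and IL17A medians as a bar. In the interferon, MHC class I and chemokine lists the 3 treated groups lie together above the bar, and in the erythroid, platelet and stroma lists Combo lies below the bar.

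Erythroid genes had the largest share of members called below expectation among the lists of cell types. Of 20 genes of the erythroid lineage and heme synthesis tested, 18 were called below and 0 above (median -1.46), and the median log2 differences from Vehicle were 1.00 for GLP1, 0.67 for IL17A and 0.21 for Combo. Alas2, which starts heme synthesis in erythroid cells, had 5925, 5850.4 and 5774 in Vehicle, 18064, 17801 and 18113 in GLP1, 7437, 7509 and 7822 in IL17A and 4001, 4058 and 3981 in Combo. GLP1 was far above Vehicle, IL17A somewhat above it, and Combo below every Vehicle library, for a departure of -2.54 ± 0.04 (edgeR adjusted p = 2.2e-39). Slc4a1, the anion exchanger of the red cell membrane, had 12552, 12920 and 12827 in Vehicle, 44555, 42908 and 43428 in GLP1, 30640, 30997 and 31309 in IL17A and 20634, 20953 and 20974 in Combo, Combo between Vehicle and the single agents, and departed by -2.34 ± 0.03. Alas2 is X-linked. Fech, Slc25a37, Epor and Klf1 departed by -1.92, -1.95, -1.83 and -1.68. The summed level of the list was 108610 to 110640 in Vehicle, 244010 to 245620 in GLP1, 170380 to 172930 in IL17A and 128500 to 129230 in Combo. Megakaryocyte and platelet genes had 9 of 17 called below expectation and 0 above (median -1.24). Ppbp, a platelet chemokine, had 304, 317 and 304 in Vehicle, 536, 603 and 549.8 in GLP1, 273, 279.6 and 293 in IL17A and 112, 107 and 116 in Combo, highest in GLP1 and lowest in Combo (departure -2.21 ± 0.14).

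Of 20 genes of marrow stroma and endothelium, 11 were called below expectation and 2 above (median -1.53), and the median log2 differences from Vehicle were 0.71 for GLP1, 0.93 for IL17A and 0.08 for Combo. The summed level of the list was 14132 to 14446 in Vehicle, 19707 to 20229 in GLP1, 16790 to 17173 in IL17A and 10671 to 10856 in Combo, lowest in Combo. Cxcl12, the chemokine of reticular stromal cells that retains stem cells and B cell precursors, had 824, 788 and 875 in Vehicle, 4021, 4164 and 3911 in GLP1, 2672, 2484 and 2537 in IL17A and 1078, 1107 and 1183 in Combo. Its 4 groups did not overlap, Combo stood between Vehicle and the single agents, and the departure was -3.47 ± 0.06 (edgeR adjusted p = 2.81e-36). WT libraries had 2827, 2760.4 and 2749.8, close to IL17A. Lepr, the leptin receptor that marks these stromal cells, had 42, 36.5 and 20.4 in Vehicle, 131, 156 and 127 in GLP1, 84.2, 102 and 94.3 in IL17A and 62.8, 59.3 and 57.4 in Combo and was called below expectation (edgeR adjusted p = 2.95e-11). Kitl, the ligand of the stem cell receptor Kit, departed by -2.48, and the bone matrix genes Ibsp and Bglap by -2.95 and -2.65. The endothelial genes Cdh5 (1.47) and Kdr (1.10) went the other way. Adipocyte genes had 6 of 14 called below expectation and 0 above, with Fabp4 at -3.30, Adipoq at -2.51 and Car3 at -2.60, although the median of the list was -0.22 (-0.42 without the third IL17A library) and Cfd and Pnpla2, also expressed in myeloid cells, were not called.

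Resident marrow macrophages, which clear aged red cells and nurse erythroblasts, had 7 of 17 genes called below expectation and 1 above (median -0.80). Mrc1, the mannose receptor, had 237, 212 and 251 in Vehicle, 2037, 2028 and 2024 in GLP1, 1343, 1393 and 1429 in IL17A and 596, 649 and 707 in Combo. Vehicle was lowest, both single agents were several-fold higher, and Combo was called below both of them, for a departure of -4.22 ± 0.09 (edgeR adjusted p = 3.49e-33). Its expectation was 12092 normalized counts, and WT libraries had 1901, 1695 and 1645. Cd163, the receptor for haptoglobin and hemoglobin, departed by -2.93, Apoe by -1.52 and the iron exporter Slc40a1 by -2.09, while Timd4 was above expectation (1.81). The summed level of the list was 42735 to 44272 in Vehicle, 53730 to 54434 in GLP1, 35982 to 36172 in IL17A and 24928 to 25295 in Combo, lowest in Combo. Cd36, a fatty acid and lipoprotein scavenger receptor, had 318, 289 and 294 in Vehicle, 2171, 2213 and 2056 in GLP1, 1223, 1197 and 1206 in IL17A and 487, 475 and 468 in Combo and a departure of -4.18 ± 0.11 (edgeR adjusted p = 3.14e-26). Slco2b1, an organic anion transporter, and Hpgd, which inactivates prostaglandin E2, had the most negative departures of genes with at least 10 counts in each group, -5.31 ± 0.19 and -5.13 ± 0.21. Hpgd had 38.6, 26.8 and 18 in Vehicle, 369, 402 and 365 in GLP1, 294, 326 and 309 in IL17A and 129.6, 126 and 102 in Combo. Slfn14 (-5.09), Mmp12 (-4.88), Gpd1 (-4.61), Col14a1 (-4.54) and Cd300lg (-4.53), with the Y-linked genes, completed the 10 most negative. In monocyte and macrophage genes as a whole, 4 of 22 were above and 4 below expectation, the Fc receptor Fcgr1 at 5.25 and the transcription factor Klf4 at -3.05.

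M2-associated and arginine metabolism genes had 10 of 14 called above expectation and 1 below, Mrc1 (median 1.66). In 4 of the 10 the additive expectation was at or below 3 normalized counts. Il10, an anti-inflammatory cytokine, departed by 2.97, Cd274, which encodes the checkpoint ligand PD-L1, by 2.68, and Chil3 by 1.81. JAK-STAT feedback genes had 7 of 18 above and 0 below (median 0.42), among them the kinase Pim1 (2.03), Csf2rb, the shared receptor chain for IL-3, IL-5 and GM-CSF (1.80), and Stat3 (1.06). Acute phase and iron genes had 6 of 13 above and 2 below (median 0.72). Hp, haptoglobin, had 138560, 136320 and 142410 in Vehicle, 43292, 43235 and 43893 in GLP1, 55011, 54880 and 54125 in IL17A and 87377, 87614 and 88605 in Combo. Combo was above all single-agent libraries (departure 2.36 ± 0.03, edgeR adjusted p = 1.88e-40). The 2 members below were Slc40a1 and the transferrin receptor Tfrc (-1.29), which also count among macrophage and erythroid genes. Complement genes had 4 of 18 on each side (median 0.32), with the anaphylatoxin receptor C3ar1 at 2.87.

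Il1b, the precursor of IL-1β, went against the inflammatory genes above. It had 604, 532 and 555 in Vehicle, 1808, 1794 and 1872 in GLP1, 3722, 3906 and 3834 in IL17A and 1312, 1277 and 1305 in Combo, and 5166, 5031 and 5034 in WT. Vehicle was lowest, both single agents were higher, and Combo minus GLP1 was -0.49 and Combo minus IL17A -1.56 on the log2 scale, the latter past the limit. The departure was -3.25 ± 0.06 (edgeR adjusted p = 8.26e-36). Within the TNF and IL-1 families 9 of 20 genes were above and 3 below expectation, Nlrp3 being below (-1.16) and Casp4 (3.70), Il18bp (3.48) and Pycard (1.91) above.

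Of 19 T cell genes tested, 9 were called below expectation and 3 above (median -0.98). Those below were the coreceptors Cd4 and Cd8b1, Cd28 and genes of the receptor complex and of naive cells, with Cd3d at -1.46, Cd3e at -1.21, Cd5 at -1.32 and the transcription factor Tcf7 at -1.99. Those above were the inhibitory receptors Ctla4 (1.48), Pdcd1 (1.38) and Lag3 (1.47), which were low in each treated group. NK and cytotoxic lymphocyte genes had 4 of 16 above and 5 below (median -0.44). Gzmb, granzyme B, had 8411, 8408 and 8375 in Vehicle, 124, 123 and 129 in GLP1, 213, 187 and 177 in IL17A and 138, 154 and 148 in Combo. Its departure was 5.68 ± 0.13, against an expectation of 2.86 normalized counts. Gzma and Prf1 departed by 2.85 and 2.44, whereas the NK cell genes Ncr1 (-1.93), Klrb1c (-1.67) and Eomes (-1.61) were below expectation. The summed level of the T cell list was 8271 to 8443 in Vehicle, 7078 to 7215 in GLP1, 4979 to 5109.9 in IL17A and 3100.5 to 3211 in Combo.

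In early B lymphopoiesis genes most members were not called. The summed level was 17893 to 18765 in Vehicle, 7527 to 7657 in GLP1, 22386 to 22652 in IL17A and 9099 to 9235 in Combo, lower in both groups that received beinaglutide than in the other two, and the median departure was -0.12 with 4 of 18 genes called below expectation, Il7r, Lef1, Rag2 and Vpreb2. Mature B and plasma cell genes had 6 of 13 below and 1 above, with the B cell Fc epsilon receptor Fcer2a at -3.85. Stem and progenitor genes had 2 of 19 on each side, near the shares over all genes tested (9.59% above and 11.5% below), so the list as a whole did not stand out. Kit was below expectation (-1.57), at 1316 ± 26.5 in Vehicle and 3583 ± 9.97, 3676 ± 38.4 and 3366 ± 82.1 in GLP1, IL17A and Combo (SD, n = 3). The interferon-inducible Ly6a was above it (4.21), as was Procr (5.54), the latter against an expectation of 0.22 normalized counts.

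Granule genes of mast cells, basophils and eosinophils had 7 of 20 above expectation and 4 below (median 0.52). Hdc, which makes histamine, had 24840, 25925 and 26232 in Vehicle, 4425, 4485 and 4471 in GLP1, 7932, 8370.5 and 8169 in IL17A and 11354, 11450 and 11496 in Combo, all treated groups under Vehicle (departure 3.01 ± 0.04). The tissue mast cell proteases Cma1 (-2.59), Mcpt4 and Tpsb2 were below expectation, with Vehicle near 0 for the other two. For Mcpt4, IL17A was near 0 as well, and its call was lost with glmTreat (adjusted p = 0.11) and without the second IL17A library (edgeR adjusted p = 0.0831). The basophil proteases Mcpt8 (1.46) and Prss34 (1.47) were above expectation. Dendritic cell genes had 3 of 19 above and 4 below (median -0.13), Bst2, an interferon-induced tether of virions, being above (4.58) and Xcr1, the chemokine receptor of cross-presenting cells, below (-3.54). For Cd209a, a lectin of monocyte-derived dendritic cells, Vehicle had at most 3 counts, and Combo was at least 12.8-fold lower than expected. Among genes below expectation with 1 group at that limit, bounds were largest for Alb (at least 45.7-fold lower than expected), Cmbl (at least 41.9-fold) and Capn11 (at least 33-fold). Alb, serum albumin, had 4.54, 8.59 and 7.2 in Vehicle, 76.9, 86.8 and 86.9 in GLP1, 13.2, 11.7 and 9.98 in IL17A and 0, 1.06 and 1.04 in Combo. Rem1 and Slc51a had bounds of 24-fold and 27.8-fold lower. Tnfsf15, a TNF family ligand, had 54.4, 64.4 and 57.6 in Vehicle, 2.81, 0 and 3.07 in GLP1, 1.02, 8.09 and 8.16 in IL17A and 1.03, 0 and 4.17 in Combo. Combo held 0 to 4 counts, too few for a size, and the call above expectation was lost with glmTreat, without the second GLP1 library and without the third Combo library (edgeR adjusted p = 0.57).

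Genes of lipid use were called in both directions, where 9.59% of all genes tested were called above expectation and 11.5% below. Fatty acid oxidation and lipolysis genes had 4 of 21 above expectation and 3 below (median 0.13). Plin2, which coats lipid droplets, had 16876, 17267 and 17546 in Vehicle, 3406, 3378 and 3574 in GLP1, 4023, 4099 and 3967 in IL17A and 6370.5, 6380 and 6549.7 in Combo (departure 2.99 ± 0.05, edgeR adjusted p = 2.8e-27), in contrast to Cd36 and Lpl (-1.60), which serve uptake of fatty acids. LXR targets had 1 of 12 above and 2 below (median 0.29). Apoc2, the activator of lipoprotein lipase, was at 2.79, with 79.5% of its exon length shared with Gm44805, and Cyp27a1, which makes the LXR ligand 27-hydroxycholesterol, at -1.66. NRF2 antioxidant genes had 3 of 13 above and 1 below (median 0.52), with thioredoxin Txn1 and Srxn1 (1.09) above and Nqo1 (-1.33) below. Immediate early genes, which also rise during tissue dissociation, had 3 of 19 above and 4 below (median -0.02), with Jun at 1.87, Ier3 at 2.13, Egr2 at -1.27 and Btg2 at -1.13.

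Housekeeping and proliferation genes had medians close to the additive expectation. Cytosolic ribosomal protein genes had 0 of 53 called by edgeR (median -0.03), with median log2 differences from Vehicle of 0.03 for GLP1, -0.35 for IL17A and -0.32 for Combo. Mitosis genes had 0 of 22 (median -0.10), and DNA replication genes had 1 of 24, Ccne2, below expectation (list median -0.33), a call close to the limit that was lost with glmTreat and without the second GLP1, the third IL17A or the third Combo library. Cholesterol and fatty acid synthesis genes had 2 of 26 above and 3 below (median -0.00071), with Idi1 at -1.55. In the heat shock and unfolded protein response, 8 of 22 were above and 0 below, with the chaperones Hspa1a at 2.12 and Hspa5 at 1.73. Of ERK feedback genes downstream of SHP2, 4 of 16 were above and 0 below (median 0.00), and Ptpn11 itself departed by 0.10.

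**Figure D5:**
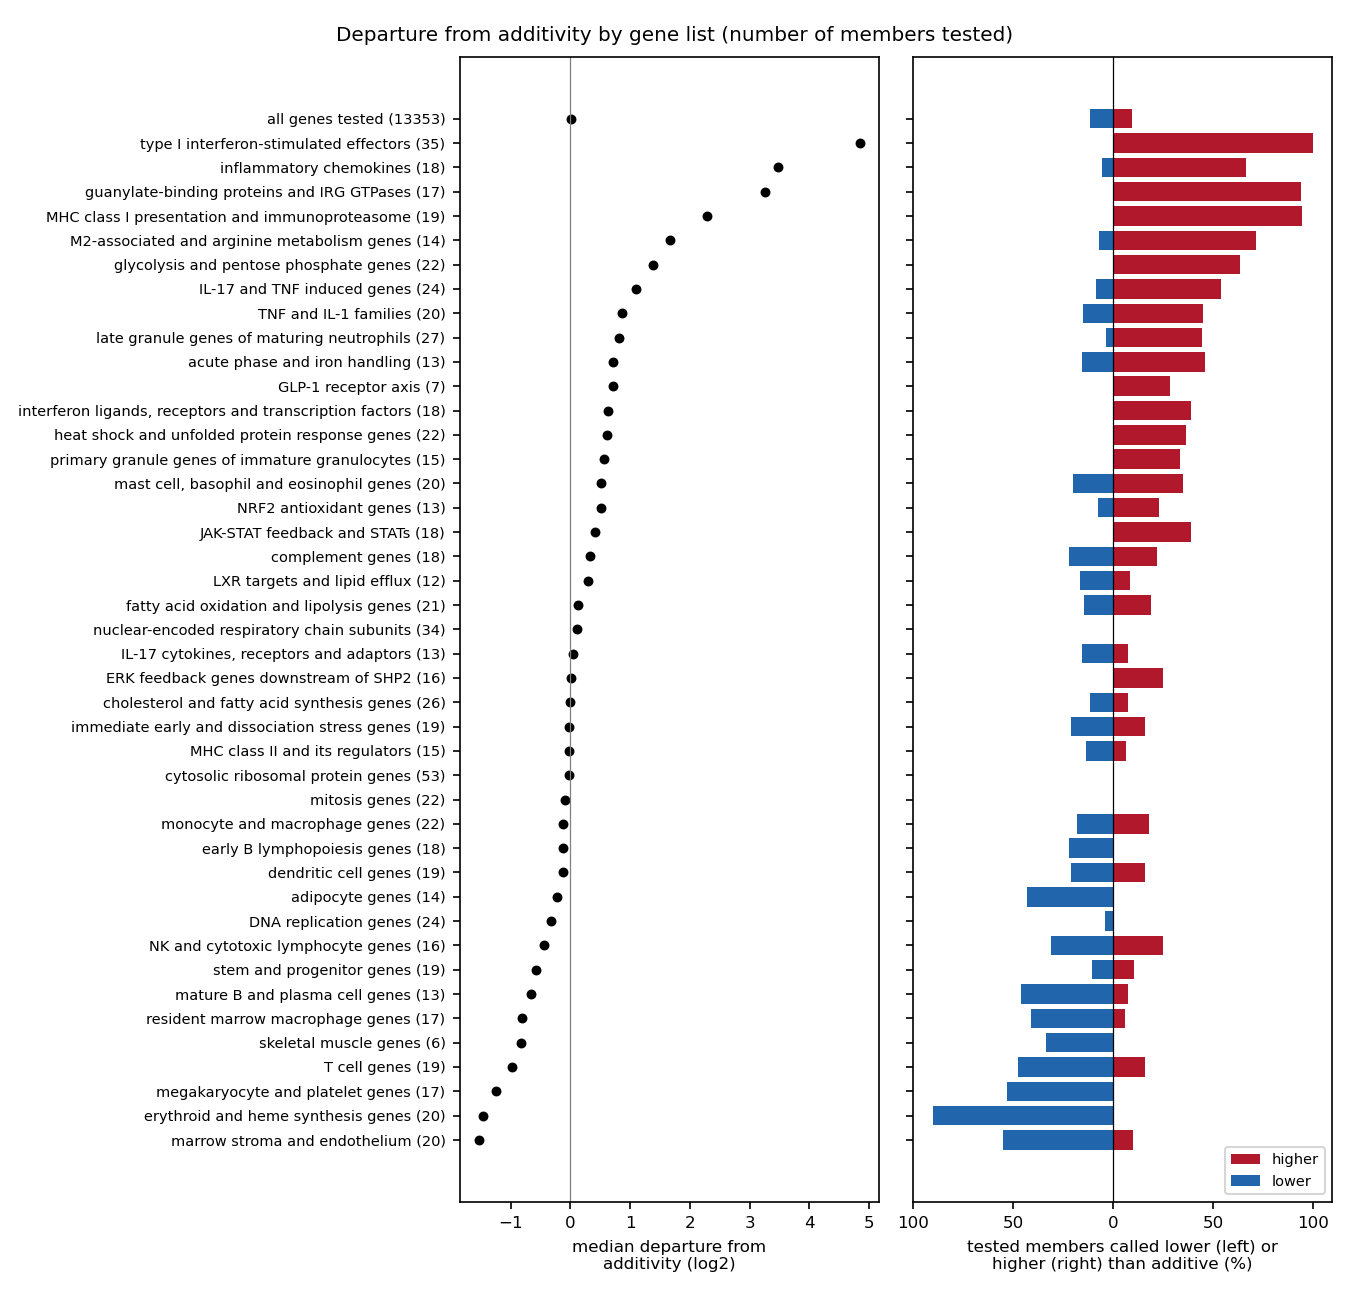
Left, median log2 departure from additivity over the tested members of each gene list, with all genes tested in the top row. Right, percent of tested members called above (red, to the right) or below (blue, to the left) the additive expectation. Type I interferon effectors, guanylate-binding proteins and IRG GTPases, and MHC class I genes are called above in nearly all members and the erythroid list below in 18 of 20.

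Among genes that the study discusses for BM, those of the IL-17 pathway itself had 1 of 13 above expectation and 2 below (median 0.05). The shares over all genes tested were 9.59% above and 11.5% below. Il17ra, the receptor of IL-17A, had 11616, 12223 and 12180 in Vehicle, 12874, 12498 and 12463 in GLP1, 13022, 13432 and 13185 in IL17A and 14286, 14301 and 14401 in Combo, and all 3 treated groups lay at or above Vehicle (departure 0.05 ± 0.04, edgeR adjusted p = 0.245). Il17a had 20.4, 22.6 and 33.6 in Vehicle, 0, 0 and 0 in GLP1, 1.02, 0 and 0 in IL17A and 0, 0 and 0 in Combo. GLP1 and Combo had no count and IL17A at most 1, so the expectation lay under 1 count and no size is given (edgeR adjusted p = 1, DESeq2 adjusted p = 0.00697). Il17f, with 30.6, 33.3 and 32.4 in Vehicle, 6.56, 8.76 and 3.07 in GLP1, 6.09, 0.899 and 5.44 in IL17A and 8.23, 3.18 and 2.09 in Combo, departed by 2.48 ± 0.89 (edgeR adjusted p = 0.013), and the call was lost with glmTreat and without the first Combo library. Tnf (0.53 ± 0.07), Ccl3 (0.59 ± 0.12) and Mmp13 (-0.31 ± 0.10) had departures under the limit of 1. Ccl4 (2.17 ± 0.20), Cxcl2 (1.88 ± 0.07) and Socs3 (1.65 ± 0.07) were called above expectation, and Tyk2 (1.04 ± 0.07) just passed the limit. Socs3, an inhibitor of cytokine receptors that STAT3 induces, had 2251, 2304 and 2262 in Vehicle, 1129.7, 1167 and 1137 in GLP1, 1290.1, 1258 and 1371 in IL17A and 2048, 2052 and 2110.5 in Combo, with Combo above all single-agent libraries. Of the GLP-1 receptor axis, 2 of 7 tested genes were called above expectation, Crem (1.66) and Pde4d (1.14), which respond to and degrade cAMP. Cxcl1 had at most 2 normalized counts in every treated library and gave no usable departure.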

How the data were processed

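Total RNA of BM cells was sequenced as paired-end reads. The counts were made by the authors with STAR 2.7.2a (mm10) and featureCounts 2.0.1 (GENCODE M22), which ignored strand, kept reads with a mapping quality from 10 upwards and assigned a read to every gene it overlapped. The deposited values are raw counts per gene, and the table held 13353 genes with at least 55 counts in all. Because strand was not used and overlaps were counted for each gene, antisense and overlapping genes cannot be told apart, and close copies lose shared reads.

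Counts of the 15 BM libraries were scaled by TMM and fitted with the robust quasi-likelihood model of edgeR 4.0.16 (R 4.3.3, limma 3.58.1), with 1 coefficient per group. filterByExpr removed 0 genes. The contrast Combo minus GLP1 minus IL17A plus Vehicle and 5 contrasts between groups were tested over all genes with Benjamini-Hochberg adjustment, and calls needed an adjusted p below 0.05 and an absolute log2 value above 1. Where every library of 1 group had at most 3 counts, a bound is given in place of a fold. No size is given where the mean of a further group was also at most 3 counts. The test was checked on simulated counts. DESeq2 1.42.0 was an alternative. Exon overlaps and chromosomes came from GENCODE M21 for 12851 genes with a unique symbol, and promoters from RefSeq. No deposited sample column of the table was left unused.

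The members and the 44 gene lists were chosen with earlier results of these data known. Named genes were the 10 called genes with the largest departure in each direction among those with a mean of at least 10 counts in each group and all 3 Combo libraries on 1 side, up to 5 with the largest bound in each direction, up to 3 called members per list, and the genes that the study names for BM, with other list members named as examples. Upp1, Tgm1, Fam20c and Prok2 were chosen after their values were seen. Alternatives were other normalizations, tests, filters and fold limits, fewer libraries, and the replicate number as a covariate.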

Additional observations from a re-analysis of the deposited data

How the results depend on the processing

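No called departure of a named gene changed sign in those of the 25 settings that gave a value for that gene. The settings without a fold limit and with glmTreat kept the log2 values of the main fit, so no sign could change there. Leaving out 1 of the 12 libraries at a time gave 2763 to 2801 called genes, 1220 to 1289 above expectation and 1492 to 1568 below it, 100 to 116 genes above both single agents and 276 to 348 below both. Over the same fits the median departure ranged from 4.634 to 4.924 for type I interferon-stimulated effectors, from -0.9214 to -0.7485 for resident macrophage genes, from -0.1388 to -0.06914 for mitosis genes and from -0.06147 to -0.02151 for ribosomal protein genes. The chemokine median ranged from 3.25 to 4.544, the highest without the second IL17A library, and it was 3.886 with DESeq2. With at least 10 counts in every library, 11968 genes were left, the chemokine median was 2.075, the ribosomal median -0.05642, and 72 genes were above and 152 below both single agents. Of the called genes left, 2128 of 2174 were also called in that fit. The ribosomal median was -0.05556 with the 12 libraries alone. Without the fold limit, 9162 genes were called, 4747 above expectation and 4415 below, Combo was above both single agents in 3210 and below both in 2033, and 563 genes above expectation had Combo called against neither. With glmTreat 1750 genes were called, 865 of them below expectation, and Combo was above both in 59 and below both in 29. Against the stronger single agent in either direction, Combo was called in 411. The causes were not tested, except that fewer genes were tested with the stricter count filter. DESeq2 shared 2800 of the 2819 calls and the fit of the 12 libraries alone 2767.

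The replicate numbers did not pair the samples, since correlations between same-numbered libraries lay from -0.0432 to 0.0498 and 4 of 12 libraries matched best with their own number. With the replicate block 2810 genes were called, 2803 of them shared. Over all settings, the call of a named gene was lost 43 times, Il17f, Ciita, Tyk2 and Ctla4 among them, and gained 4 times. Low counts limit Il17a, Cxcl1 and the genes given as bounds, and an additive expectation near 0 makes the size of a departure depend on few counts in the single agents.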
